A study of Rattus norvegicus with 6 samples.

Results

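The genes described here encode the contractile machinery that myoepithelial cells share with smooth muscle, together with the oxytocin receptor and a transcription factor of basal epithelium. The 10 members were chosen by gene symbol: Acta2, Actg2, Myh11, Cnn1, Tagln, Mylk, Myl9, Lmod1, Oxtr and Tp63. All 10 had a row among the 26195 named rows of the read count table, and all 10 passed the filter on low counts among 13139 genes tested. The table covers 6 mammary tumors of F344 rats, an inbred strain, of which 3 grew in older rats (numbered 102, 107, 116) and 3 in younger rats (numbered 157, 158, 167). Older rats were received at 19 to 21 months of age and younger rats at 6 to 8 weeks. Every rat of both groups had been implanted with MPA, a synthetic progestin, in a 50 mg pellet that released it over 90 days, and was given the carcinogen DMBA by gavage in sesame oil at 65 mg per kg. Each tumor was a single bulk library of frozen tissue, and the labels do not say whether each tumor came from its own rat, so the p-values below measure the spread between tumors.

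Myoepithelial cells form the outer layer of mammary ducts and alveoli, next to the basement membrane. They are epithelial cells that express keratins and Tp63, yet they contract as smooth muscle does: oxytocin released during suckling binds Oxtr, calcium rises, myosin light chain kinase (Mylk) phosphorylates the myosin light chain Myl9, and the myosin heavy chain Myh11 pulls on filaments of Acta2 and Actg2. Smooth muscle of vessels, pericytes and myofibroblasts express many of the same contractile genes, whereas Tp63 belongs to the basal epithelium. In bulk tissue, fewer cells of a type and less RNA per cell cannot be told apart.

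Library totals ran from 3508571 to 6525830 counts, and 3 counts, taken as the floor, corresponded to between 0.53 and 1.03 CPM (reads of a gene relative to the library total, after TMM scaling, which corrects for differences in library composition). This limit covers counting error only. Tumor 102 stood apart from the rest, with correlations of log2 CPM over all genes tested of 0.785 to 0.856 with the other tumors, against 0.856 to 0.925 among those. Epcam, a surface marker of epithelium, was at 300.02 CPM or more in every tumor.

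The 8 contractile genes were lower in older tumors 102 and 116 than in older tumor 107 and in every younger tumor. Their summed level was 766 CPM in tumor 102, 853 CPM in tumor 116 and 3598 CPM in tumor 107, against 2952, 2467 and 2564 CPM in younger tumors 157, 158 and 167. Tumors 102 and 116 were the lowest pair for each of the 8, which held for 6.07% of all genes tested; this pair was singled out after the values had been seen. Tp63 and Oxtr followed another order, with low levels in tumor 102 and levels inside the younger range in tumor 116. For Acta2, Myh11, Cnn1, Mylk, Lmod1 and Oxtr, the older tumors thus lay on both sides of the younger ones. For Actg2, Tagln, Myl9 and Tp63 they lay below or within the younger range. In the test across all genes, 0 of the 10 members differed between the age groups.

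**Figure D1:**
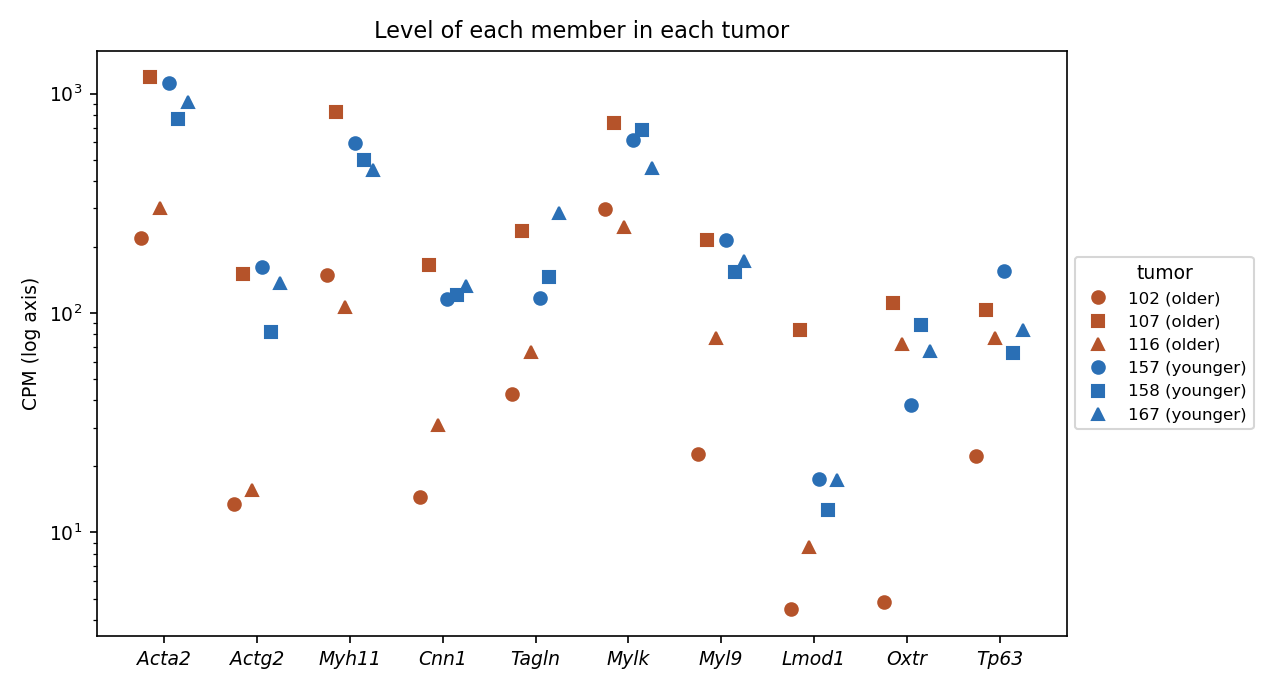
CPM (log axis) of each member in each of the 6 tumors; brown marks are older tumors, blue marks are younger tumors, and every point is a single library. Tumors 102 and 116 lie below all other tumors for the 8 contractile genes, whereas for Oxtr and Tp63 tumor 116 lies among the younger tumors.

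Acta2 encodes the smooth muscle alpha actin of the thin filament and is the usual marker of myoepithelium. It was at 221 CPM in tumor 102, 1186 in tumor 107 and 300.2 in tumor 116, and at 1119, 769 and 911 CPM in younger tumors 157, 158 and 167. Older tumor 107 was the highest of all and the other 2 older tumors were the lowest. Actg2 encodes the smooth muscle gamma actin, typical of the gut wall. It was at 13.4, 151 and 15.6 CPM in older tumors 102, 107 and 116 and at 162, 81.6 and 138 CPM in younger tumors 157, 158 and 167, the same order except that tumor 157 was above tumor 107. Reads in conserved coding stretches of the actin genes may be assigned to the wrong copy, so levels of Acta2, Actg2 and Acta1 are uncertain to that degree.

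Transcription of Acta2 in smooth muscle is known to need serum response factor, which binds CArG boxes of 10 bases, made of CC, 6 bases that are A or T, and GG. In the RefSeq promoter table of assembly GRCr8, 6 of the 10 members had an entry: Acta2, Actg2, Cnn1, Mylk, Oxtr and Tp63. Each entry holds 250 bases before the annotated start and 50 after it, and both strands were searched. No exact CArG box lay in these 6 windows, which 1.64% of all 33469 promoters held. With 1 G or C allowed among the 6 inner bases, Acta2 had 2 matches, at 134 to 125 and at 84 to 75 bases before the start, and the other 5 had none, whereas 9.42% of all promoters had at least 1 and 0.846% had 2 or more. The 250 bases before the start of Acta2 (GRCr8, minus strand, chr1:241172504-241172753) and of Actg2 (GRCr8, minus strand, chr4:117594040-117594289) are shown because both actins had nearly the same order across the tumors while only the first window held a match; capitals mark the matches.
Acta2: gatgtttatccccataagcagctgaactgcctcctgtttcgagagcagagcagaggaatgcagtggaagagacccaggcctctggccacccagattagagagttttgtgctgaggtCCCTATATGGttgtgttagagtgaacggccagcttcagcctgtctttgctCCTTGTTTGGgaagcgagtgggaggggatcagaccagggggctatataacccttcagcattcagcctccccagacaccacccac
Actg2: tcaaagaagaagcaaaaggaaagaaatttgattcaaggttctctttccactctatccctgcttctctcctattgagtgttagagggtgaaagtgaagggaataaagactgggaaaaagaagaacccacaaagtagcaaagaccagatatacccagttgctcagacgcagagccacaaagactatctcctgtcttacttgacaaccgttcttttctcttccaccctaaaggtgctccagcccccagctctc
A match describes letters only, and an absent match says nothing about sites outside the window.

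Among the genes of the motor, Myh11, the smooth muscle myosin heavy chain, was at 149, 823 and 106 CPM in older tumors 102, 107 and 116 and at 593, 500.2 and 447 CPM in younger tumors 157, 158 and 167. Here tumor 116 was the lowest and tumor 107 lay above all younger tumors. Mylk, the kinase that switches the motor on, was at 299, 737 and 248 CPM in the same older tumors and at 612, 683 and 459.9 CPM in the younger ones. It had the narrowest spread of the 10 members, 2.98-fold between tumors 116 and 107. Myl9, the regulatory light chain that Mylk phosphorylates, was at 22.7, 214 and 77.3 CPM in the older tumors and at 215, 154 and 173 CPM in the younger ones, a 9.47-fold range. In tumor 102, Myl9 was therefore far lower than Mylk relative to the other tumors.

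Cnn1 encodes calponin, an actin-binding protein that restrains the motor. It was at 14.5, 165 and 30.8 CPM in older tumors 102, 107 and 116, and at 115, 121 and 133 CPM in younger tumors 157, 158 and 167. The younger tumors lay close together, while the older ones spanned 11.4-fold. Tagln, or transgelin, is a related protein that bundles actin. It was at 42.7, 238 and 66.3 CPM in the older tumors and at 117, 146 and 285 CPM in the younger ones, and tumor 167 rather than tumor 107 was the highest. Lmod1 encodes leiomodin, which starts new actin filaments in smooth muscle. It was at 4.48, 83.9 and 8.61 CPM in the older tumors, counts of 13, 369 and 43, and at 17.5, 12.7 and 17.3 CPM in the younger tumors. Tumor 107 stood far above the other 5 tumors, and without it the sign of the age difference reversed.

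Oxtr, the receptor through which oxytocin makes myoepithelium contract, was at 4.82 CPM in tumor 102, 111 in tumor 107 and 72.5 in tumor 116, and at 38.0, 88.5 and 67.4 CPM in younger tumors 157, 158 and 167. Tumor 102 had 14 reads of the gene against at least 215 in each other tumor, and the 23.1-fold range was the widest of the members. Tumor 116, low for all contractile genes, had the third highest level. Tp63 encodes p63, a transcription factor that basal epithelium needs. It was at 22.4, 103 and 77.3 CPM in the older tumors and at 156, 65.9 and 83.9 CPM in the younger ones. Tumor 102 was again the lowest, and tumor 116 lay between younger tumors 158 and 167.

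The age groups were tested against each other with edgeR's quasi-likelihood test, and p-values were adjusted over all genes by the Benjamini-Hochberg method. At an adjusted p under 0.05, 0 of the 10 members and 0% of all genes were called. At an unadjusted p under 0.05 there were 0 members against 8.59% of all genes, and after adjustment limma-voom called 0 members and 0 genes, and DESeq2's Wald test 0 members and 343 genes (2.28% of those with an adjusted p). The age groups overlapped for every member, whereas they did not for 12.1% of all genes, and 5.58% were lower in all older tumors. Going by sign, 9 members were lower and 1 was higher in older tumors, and the median log2 fold change was -0.62 over the members and 0.00 over all genes, but -0.27 over the members without tumor 102 and -1.79 without tumor 107. Acta2 was at 569 ± 536 CPM (SD, n = 3) in older and 933 ± 176 CPM (SD, n = 3) in younger tumors, which gave -0.71 ± 0.62 (SE) on the log2 scale, with an adjusted p of 0.861 by edgeR. Actg2 had the lowest value, -1.08 ± 0.88 (SE), with an adjusted p of 0.849 by edgeR. Lmod1 had the only positive value, 1.04 ± 0.95 (SE), with an adjusted p of 0.871 by edgeR, but with limma-voom Lmod1 was at 0.07 and Oxtr at -0.64. The other 7 members had fold changes between -0.81 (Cnn1) and -0.03 (Oxtr). For these 3 genes the difference in mean CPM did not exceed the SD of the older tumors, which was 536 CPM for Acta2, 79.0 for Actg2 and 44.7 for Lmod1.

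The size of the differences depended on which older tumors entered the fit. All 10 members were lower in tumor 102 than in every younger tumor, as were 33.4% of all genes, and 8 were so in tumor 116 (20.3% of all genes), the exceptions being Oxtr and Tp63. In tumor 107, 0 members were below the younger range (24.5% of all genes) and 6 were above it (23.6% of all genes), namely Acta2, Myh11, Cnn1, Mylk, Lmod1 and Oxtr. Without tumor 107, 8 members reached an unadjusted p under 0.05, as did 8.28% of all genes tested in that fit, with log2 values of -3.12 ± 0.40 (SE) for Actg2, -1.84 ± 0.39 (SE) for Acta2 and -1.25 ± 0.47 (SE) for Lmod1, whose sign reversed. Of these, 0 passed after adjustment, with adjusted p-values of 0.221, 0.364 and 0.554 by edgeR, and 0.221 was the smallest of any member over all alternatives run. The 8 were the contractile genes, which lay below every younger tumor in the 2 older tumors left in that fit. Their low p-values thus follow from which tumor was left out and are no test of age. Each fit that left out another tumor gave 0 members at an unadjusted p under 0.05. Tumor 102 was the lowest for 8 of the 10 members, against 27.3% of all genes; without it, the log2 fold change was -0.33 for Acta2 and 0.49 for Oxtr.

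**Figure D2:**
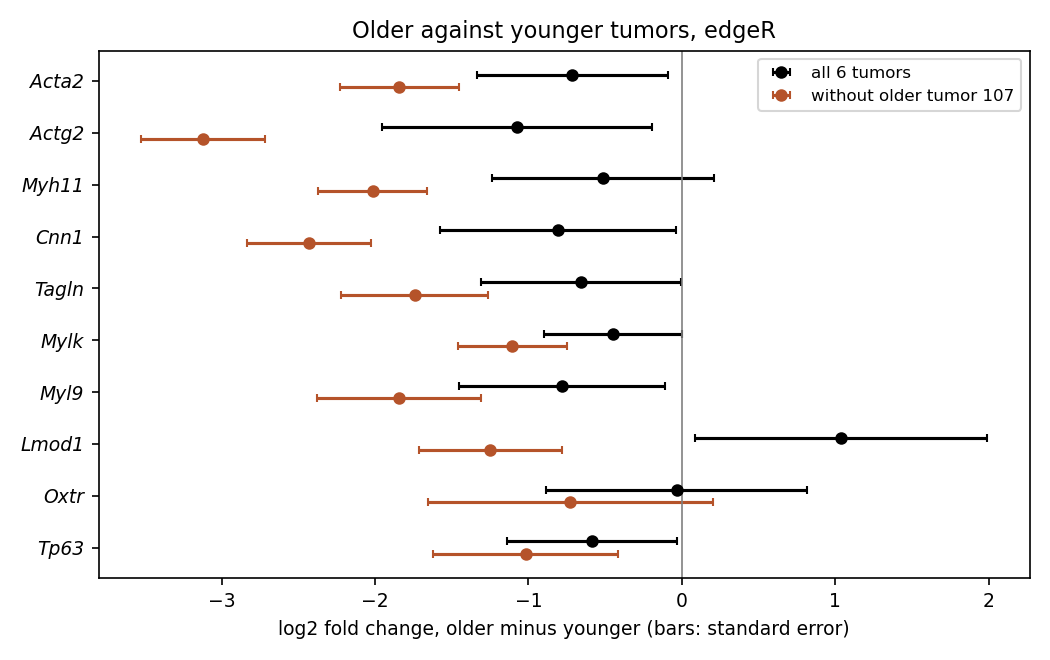
Log2 fold change of each member, older minus younger tumors, with the standard error from edgeR; black points use all 6 tumors and brown points leave out older tumor 107. Without tumor 107 all 10 values are negative and the standard errors of the 8 contractile genes shrink, yet the adjusted p stays at 0.221 or above. The older tumors left, 102 and 116, lie below all younger tumors for those 8 genes, so the brown points are no test of age.

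The members were then compared with each other across tumors. Over the 28 pairs of contractile genes, Pearson's r of log2 CPM had a median of 0.88 (range 0.73 to 0.99), and every r was positive. Single contractile genes had medians of 0.79 (Lmod1) to 0.95 (Acta2) with the other contractile genes, while the same genes had medians between 0.00 and 0.02 over all other genes tested. A median near 0 says only that positive and negative values of r were about equally common. How often pairs of other genes reach such high values was not tested. Of all 45 pairs of members, 24 had an unadjusted p under 0.05 in a two-sided exact permutation test and 5 passed after adjustment over the 45 pairs: Acta2 with Actg2, Acta2 with Myl9, Actg2 with Myl9, Myh11 with Mylk, and Cnn1 with Tagln. No pair passed by Spearman's rho, for which the adjusted p of these 5 pairs was 0.0625 or 0.075 (exact permutation test). For Acta2 and Actg2, r was 0.99 (exact permutation p = 0.00278, adjusted 0.0312) and rho 0.94 (exact permutation p = 0.0167, adjusted 0.075). Because tumors 102 and 116 form a separate low cluster for the contractile genes, r over all 6 tumors largely measures the gap between that pair and the rest. These p-values therefore do not test a relation within either cluster, because each holds too few tumors for a test.

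Without the 2 tumors farthest from the first gene's median, which were tumors 102 and 116 for 25 of the 28 contractile pairs, r was still positive for 26, with a median of 0.66 and a range of -0.20 to 0.99. Acta2 kept an r of 0.90 with Actg2 and 0.99 with Myl9, whereas for Acta2 with Tagln r went from 0.88 to 0.05, so that relation rested on the low tumors. With each value centred on the mean of its age group, the median r of contractile pairs was 0.90, with the difference between age groups removed. Centring keeps the gap between tumor 107 and tumors 102 and 116, all of them older. The mean log2 CPM of the 8 genes had an SD of 1.52 in older and 0.15 in younger tumors. This r therefore says little about the younger tumors. Tp63 had a median r of 0.71 with the 8 contractile genes and 0.50 without the farthest tumors, and for Oxtr these medians were 0.67 and 0.08. For Acta2 and Oxtr, r was 0.66 (exact permutation p = 0.117, adjusted 0.146), rho was 0.49 (exact permutation p = 0.356, adjusted 0.400) and r without tumors 102 and 116 was -0.17. For Oxtr and Tp63, r was 0.75 (exact permutation p = 0.147, adjusted 0.179) and rho 0.20 (exact permutation p = 0.714, adjusted 0.714).

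**Figure D3:**
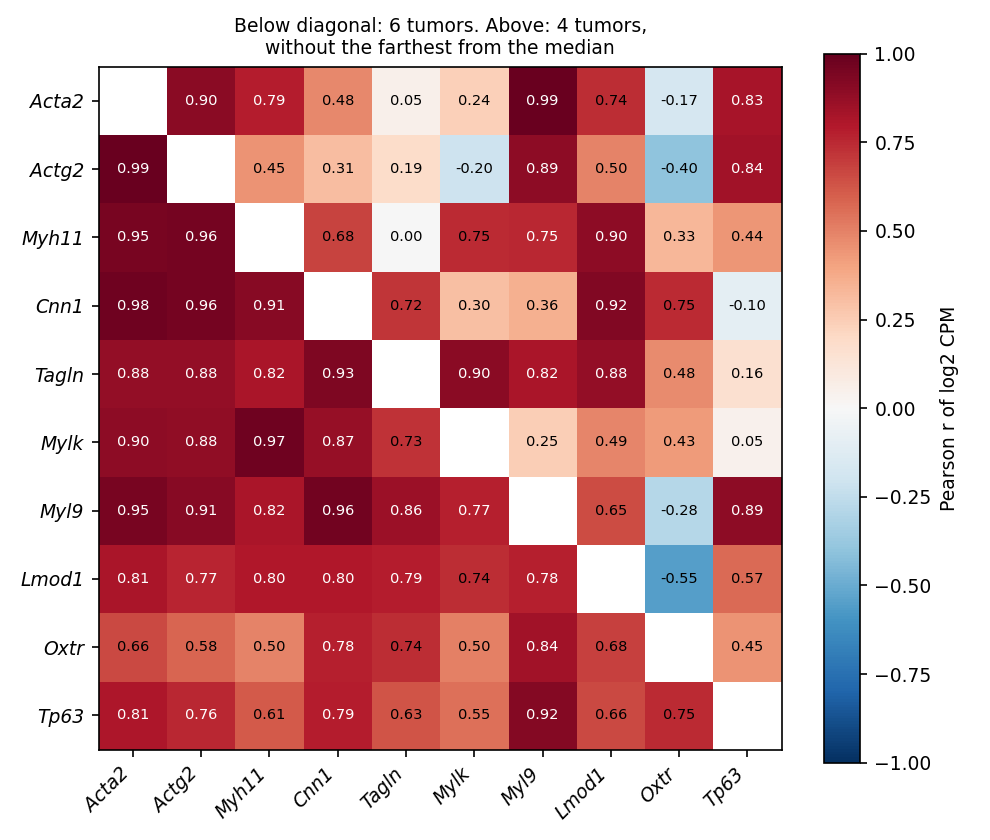
Pearson's r of log2 CPM between members, below the diagonal over all 6 tumors and above it over 4 tumors, without the 2 farthest from the median of the first gene of the pair. All values below the diagonal are positive (0.50 to 0.99), whereas those above it reach -0.55 and are lowest in the Oxtr column.

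Apart from the prior count, a small number added to the counts before taking logs, ratios within a tumor do not depend on library scaling. Of 11 log2 ratios, 2 did not overlap between the age groups, each with p = 0.1 in a two-sided exact permutation test, the smallest p that 3 against 3 tumors allow, and 0.55 after adjustment over the 11. Among all genes tested, the levels of 12.1% did not overlap. The ratio of Lmod1 to Acta2 was -4.79 ± 0.87 (SD, n = 3) in older and -5.84 ± 0.14 (SD, n = 3) in younger tumors and was highest in tumor 107 (-3.81). The ratio of Tp63 to Krt5, a basal keratin, was -1.30 ± 0.35 (SD, n = 3) in older and -2.19 ± 0.43 (SD, n = 3) in younger tumors. Krt5 was taken for this ratio only after the data had been seen. Tumor 116 had the highest ratios of Oxtr to Acta2 (-2.04, against -5.39 to -3.11 in the others) and of Tp63 to Acta2 (-1.95, against -3.54 to -2.84). Tumor 102 had the highest ratio of Mylk to Myl9, 3.69 against 1.41 to 2.15. The ratio of Myh11 to Acta2 averaged -0.86 in older and -0.85 in younger tumors (p = 1, exact permutation test).

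**Figure D4:**
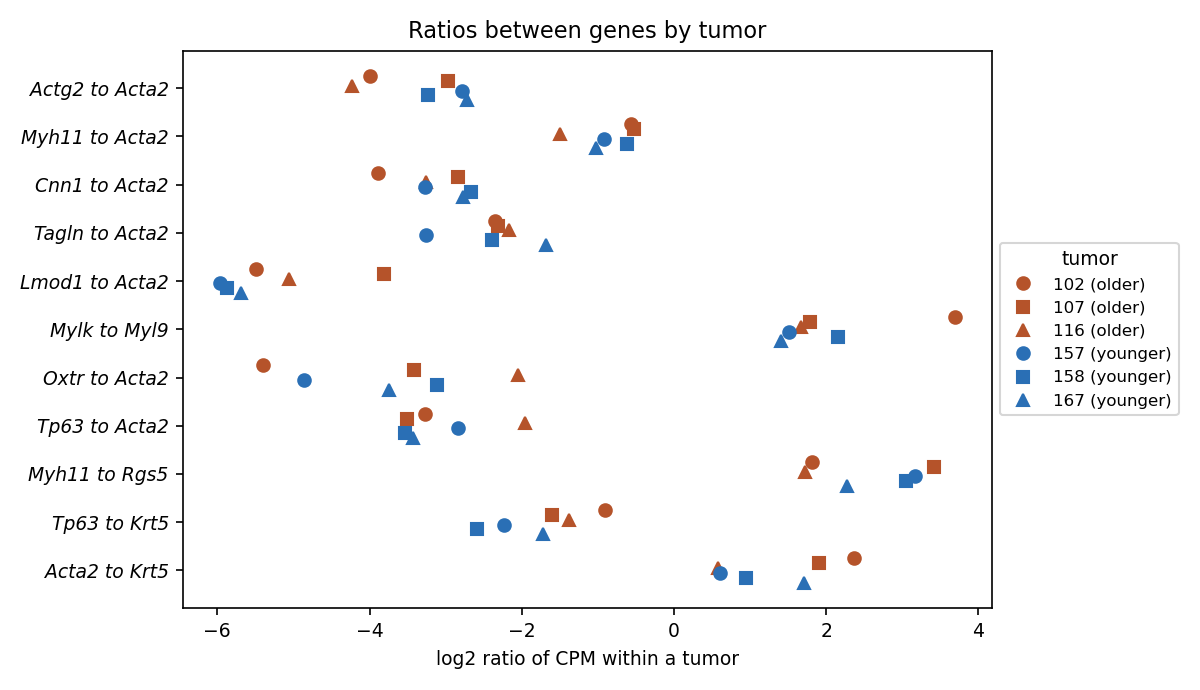
Log2 ratio of CPM between 2 genes within each tumor (x axis), one row per ratio, with brown marks for older and blue marks for younger tumors. Tumor 116 lies to the right for Oxtr to Acta2 and Tp63 to Acta2, and tumor 107 for Lmod1 to Acta2.

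Other genes of smooth muscle contraction were taken from 3 lists. None of the 40 genes tested passed after adjustment. Of 16 further smooth muscle contractile genes, 6 were higher and 10 lower in older tumors by sign, with a median log2 fold change of -0.05. Des, the intermediate filament desmin, was at 19.3, 216 and 4.21 CPM in older tumors 102, 107 and 116 and at 12.2, 6.69 and 2.96 CPM in younger tumors 157, 158 and 167, 3.44 ± 1.31 (SE) on the log2 scale, with an adjusted p of 0.507 by edgeR, and tumor 107 stood far above the rest, as it did for Lmod1. Itga8, an integrin of smooth muscle and other mesenchyme, was higher in all older tumors by 2.60 ± 0.60 (SE) on the log2 scale, with an adjusted p of 0.307 by edgeR, and was highest in tumor 102, at 431 CPM, where the contractile members were lowest. The cytoskeletal linker Flna was at 1513 CPM in tumor 107 and at 508 and 596 CPM in tumors 102 and 116, lowest in the same tumors as the members. Csrp1, a LIM domain protein, was at 475, 365 and 506 CPM in older tumors 102, 107 and 116 and at 280.0 to 408 CPM in the younger ones, highest in the tumors where the members were lowest. Of 16 genes of contraction signalling, 6 were higher and 10 lower. Plcb1, a phospholipase C downstream of Gq-coupled receptors, differed by -0.996 ± 0.323 (SE) on the log2 scale, with an adjusted p of 0.412 by edgeR, and Gna11, a G protein subunit, by -0.56 ± 0.23 (SE), with an adjusted p of 0.561. Both were at lower CPM in all older tumors than in any younger one. Of 8 genes around serum response factor, 4 were higher and 4 lower. Srf itself was at 67.8 to 87.3 CPM in older and at 87.9 to 115 CPM in younger tumors, -0.35 ± 0.23 (SE) on the log2 scale with an adjusted p of 0.786 by edgeR, and its cofactor Myocd had at most 12 counts in any tumor.

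Among 14 paralogs of the members, 8 had enough counts to be tested and 0 passed. The cytoskeletal actin Actb was at 4418, 8265 and 3976 CPM in older tumors 102, 107 and 116 and at 4154 to 6262 CPM in younger tumors, a spread of far smaller fold than that of Acta2. Tagln2 was lower in all older tumors than in any younger one, by -1.01 ± 0.34 (SE) on the log2 scale, with an adjusted p of 0.433 by edgeR. Acta1, the actin of skeletal muscle, was at 3.44, 47.5 and 1.60 CPM in the older tumors and at 14.3 to 22.1 CPM in the younger ones, an order close to that of Acta2, while Ckm, the muscle creatine kinase, had at most 4 counts in any tumor. Whether Acta1 reads came from other actin genes was not tested.

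Marker lists of the cell types that could carry these genes were set beside the members. The mean log2 CPM of 11 basal epithelial genes was 4.58, 6.16 and 5.77 in older tumors 102, 107 and 116 and 6.69, 5.93 and 6.27 in younger tumors 157, 158 and 167, and 10 of the 11 were lower in older tumors by sign. As a description over 6 tumors, this mean had an r of 0.98 with Tp63, 0.87 with Acta2 and 0.69 with Myh11. The r with Acta2 was not particular to this list. It was 0.86 for the luminal epithelial list, 0.95 each for the contraction signalling and paralog lists, and 0.53 for the pericyte list. The r of the luminal list with Tp63 was 0.85. Genes of the basal list differed: with the mean z-score of the 8 contractile genes, r was 0.80 for Krt5 and 0.05 for Itga6. Krt5 was at 42.3, 315 and 201 CPM in the older tumors and at 737, 399 and 279 CPM in the younger ones. The mean of tumor 116 was below those of tumors 107, 157, 158 and 167, and tumor 102 was the lowest. Krt14, fixed in this list, was not analysed here.

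The summed level of the 9 fibroblast genes was highest in tumor 102 and lowest in tumors 107 and 167, at 1693, 211 and 835 CPM in the older tumors and of 179 to 1264 CPM in the younger ones. Dcn, the matrix protein decorin, was at 168 CPM in tumor 102, the lowest for Acta2, and at 2.27 CPM in tumor 107, the highest. Thy1, a surface glycoprotein of the same list, was lowest in tumors 102 and 116 and highest in tumor 107 instead, at 11.7, 27.5 and 13.2 CPM in older tumors 102, 107 and 116 and at 19.7 to 27.2 CPM in the younger ones. The 4 adipocyte genes summed to 681, 415 and 279 CPM in the older and to 77.0 to 225 CPM in the younger tumors, with the highest sum in tumor 102. The 8 endothelial genes summed to 446, 373 and 126 CPM in the older and to 84.4 to 356 CPM in the younger tumors. Tumor 102 thus had the highest endothelial sum and the lowest Acta2 level. Its genes were divided: Pecam1, Tek, Emcn and Egfl7 were highest in tumor 102, whereas Cdh5, Vwf, Kdr and Tie1 were highest in other tumors. The 8 pericyte genes summed to 468, 608 and 215 CPM in the older and to 346 to 597 CPM in the younger tumors, and were lowest in tumor 116. Of these 8 genes, 2 had tumors 102 and 116 as their lowest pair, and Pdgfrb, a receptor of pericytes and fibroblasts, was highest in tumor 102 at 134 CPM. The part that each cell type had in the members' levels was not tested.

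The 7 macrophage genes were all higher in older tumors by sign, at 198 to 352 CPM in sum against 93.3 to 153 CPM in younger tumors, and 0 passed after adjustment. For 10 luminal epithelial genes, sums were 1980 to 2304 CPM in older and 2729 to 3035 CPM in younger tumors, with 9 lower by sign and 0 past the threshold. The sums of the adipocyte, macrophage and luminal lists did not overlap between the age groups, whereas that of the contractile members did. By mean log2 CPM the adipocyte list did overlap, at 3.38 in older tumor 107 and 3.46 in younger tumor 158. How often gene lists at large would not overlap was not tested.

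**Figure D5:**
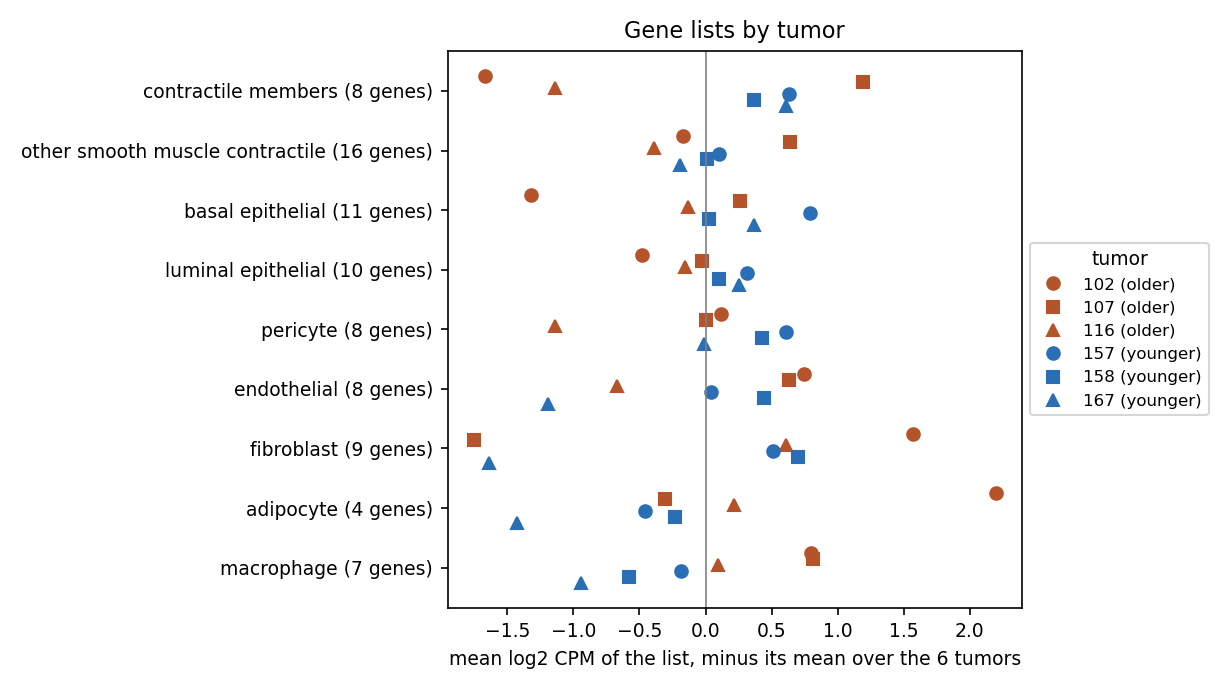
Mean log2 CPM of each gene list in each tumor, minus the mean of that list over the 6 tumors (x axis); brown marks are older and blue marks younger tumors. Contractile members are lowest in tumors 102 and 116 and highest in tumor 107, whereas fibroblast genes are lowest in tumors 107 and 167 and highest in tumor 102.

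The genes most like the contractile members were ranked by Pearson's r with the mean z-score of the 8 genes over 6 tumors, among 13014 other named genes with a mean of at least 1 CPM. Among the highest were Eps8l1 (r = 0.99), Tgfb1i1 (0.99), Mpp2 (0.98), Akt2 (0.98), Znfx1 (0.98), Trpm4 (0.97) and LOC108348201 (0.97). With 6 points and this many genes, such values are a description only. Tgfb1i1, a focal adhesion adaptor and 1 of the 9 genes of the serum response factor list, was at 15.5, 59.1 and 21.4 CPM in older tumors 102, 107 and 116 and at 38.4, 43.8 and 43.9 CPM in the younger ones. The 5 genes most like Oxtr were Ufc1, Lyrm1, Mrpl44, Psmg3 and Srrd (r of at least 0.985), and those most like Tp63 were Ckap5, Plrg1, Zfp57, Prag1 and Bricd5 (r of at least 0.987), with none shared between the 3 rankings.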

How the data were processed

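Bulk RNA-seq of 6 tumors was deposited as raw read counts per gene. The authors depleted ribosomal RNA from frozen tissue RNA, per the labels' protocol, although another label names polyA RNA. According to the study's methods, reads were checked with FastQC 0.11.7, trimmed with Trimmomatic 0.38, aligned with STAR 2.7.9a, passed to Picard 2.18.12 for marking of duplicates and counted with HTSeq 0.13.5. The submitters' processing notes name build mRatBN7.2. The strand setting, the annotation and whether marked duplicates were counted are not given in the sources used here. Columns were matched to tumors by the tumor number in each title, and 0 were left unused. The 4367 rows without a gene name (2.17% to 3.64% of counts) were left out.

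The main test was that of edgeR 4.0.16 under R 4.3.3 (filterByExpr, TMM, glmQLFTest without covariates, threshold 0.05), with DESeq2 1.42.0 and limma 3.58.1 (voom) as alternatives. Standard errors were calculated back from F. Log2 CPM used a prior count of 2, ratios included. Levels are compared within a gene, not between genes, because no transcript lengths were used. The other alternatives were DESeq2's size factors, library totals, other filters, leaving out abundant genes or each tumor, and a prior count of 0.5.

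The members and gene lists were chosen with earlier results of these data known. Genes named from the lists were those with an adjusted p under 0.05, the 2 with the smallest p and the 2 with the highest mean CPM; not all are printed, 1 gene similar in pattern to the members is not reported here, and Pdgfrb, Thy1, Acta1, Ckm and Myocd were named after their values were seen. Ratios to Krt14, planned, were made to Krt5 instead, a choice made after seeing the data, since Krt14 was not analysed here.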

Additional observations from a re-analysis of the deposited data

How the results depend on the processing

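No paired analysis was possible because older and younger tumors came from separate groups of rats. The number of members past the threshold was 0 under every alternative run, and the number of all genes was 0 except with the DESeq2 Wald test, 343; fits that each left out a tumor gave 0. Members at an unadjusted p under 0.05 ranged from 0 to 8, the latter without older tumor 107, where 8.28% of all genes did so, and members with a lower mean in older tumors from 8 to 10 across those fits. Signs reversed for Lmod1 at -1.25 without older tumor 107 (range -1.25 to 1.54) and for Oxtr (range -0.73 to 0.49) at 0.49 without older tumor 102 and 0.27 without younger tumor 158. The members' median log2 fold change was -0.62 with edgeR and -1.03 with limma-voom. The median r over all pairs of members, 0.81, ranged from 0.68 to 0.89, and over contractile pairs, 0.88, from 0.88 to 0.92, with a tumor left out. Ratios without overlap, 2, ranged from 2 to 4. With library totals, the r of Acta2 moved from 0.67 to 0.80 for the other smooth muscle list, from 0.95 to 0.84 for contraction signalling and from 0.71 to 0.82 for the serum response factor list. Keeping rows without a name was chosen after seeing the data and changed no call of a member. Depth limits Lmod1 and Oxtr in tumor 102, with 13 and 14 counts.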
